A study of Homo sapiens with 40 samples.

Results

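The unfolded protein response genes examined here are 10 genes fixed by name, XBP1, ATF4, ATF6, DDIT3, HSPA5, ERN1, EIF2AK3, DNAJB9, HERPUD1 and TRIB3, out of 19663 protein-coding genes with a start site in GENCODE 44. Their chromatin was read from every H3K27ac and CTCF peak that lay within 2 kb of a start site of the gene (a promoter peak), inside the gene, or closer to its start than to that of any other protein-coding gene and within 100 kb. This gave 38 of 51489 H3K27ac peaks and 26 of 51457 CTCF peaks, together with the enhancers listed for each state and the senescence-specific Rb regions. All coordinates are hg38, counted from 1.

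The unfolded protein response is the set of pathways by which a cell answers a surplus of unfolded protein in the endoplasmic reticulum. Its sensors sit in the membrane of that organelle. IRE1, encoded by ERN1, splices the XBP1 messenger RNA into the form that encodes an active transcription factor. PERK, encoded by EIF2AK3, slows translation and favours production of ATF4, while ATF6 is cut in the Golgi and its released part enters the nucleus. HSPA5 encodes the chaperone BiP, which binds the sensors and holds them inactive. Beta cells make large amounts of proinsulin and depend on this response.

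Chromatin immunoprecipitation followed by sequencing had been performed on EndoC-βH3, a human beta-like line derived from fetal pancreas. The line carries hTERT and the SV40 Large T antigen as a cassette that the recombinase CreER can excise, and the control cells still express both. Non-senescent cells were the control, and senescent cells had received 4-hydroxytamoxifen for 3 weeks, so the drug and the senescent state cannot be told apart. The acetylation H3K27ac, found at active promoters and enhancers, and the looping factor CTCF were each profiled in 3 non-senescent and 3 senescent libraries, the enhancer mark H3K4me1 and the retinoblastoma protein Rb in 2 and 2, each with its own input, 40 libraries in all. Every group was of this same line with a genotype given as wild type, and nothing in the labels says whether replicates were separate cultures.

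The 2 peak tables give 1 usable value for a peak, the authors' mean normalised read count over the 6 libraries of both states. No value per library was used, and the depth of each library is unknown. The level of a mark is therefore a description of both states together, and the states were compared only by which regions stand in the enhancer list of each and in the Rb list. There is 1 list for a state, so none of these differences has a replicate error or a test. The beta-cell label was checked first. The beta-cell markers INS, PDX1, NKX6-1, NEUROD1 and ISL1 each had an H3K27ac promoter peak, with mean counts from 2453 to 10149. Of 6 markers of other cells, only SST had one, at 54.2, while GCG, PTPRC, COL1A1, CDH5 and PRSS1 had none. Listed enhancers did not separate the markers in this way. NKX6-1 and ISL1 had enhancers in both lists, as did PTPRC and CDH5. PDX1 had them in the senescent list only, and INS, NEUROD1, GCG, SST, COL1A1 and PRSS1 in neither. PTPRC also had a promoter Rb region.

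All 10 unfolded protein response genes carried an H3K27ac promoter peak, as did 66.4% of protein-coding genes. The highest promoter peak of each had a median mean count of 2345, which was 3.90-fold the median of 601.1 over the 13059 genes with such a peak. The median percentile among those genes was 92.6. By this measure 8 members stood above the 75th percentile and 6 above the 90th percentile. ATF4, DDIT3 and TRIB3 ranked lower when the count was divided by the width of the peak, ATF6, EIF2AK3 and HERPUD1 ranked higher, and the median percentile became 84.9.

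**Figure D1:**
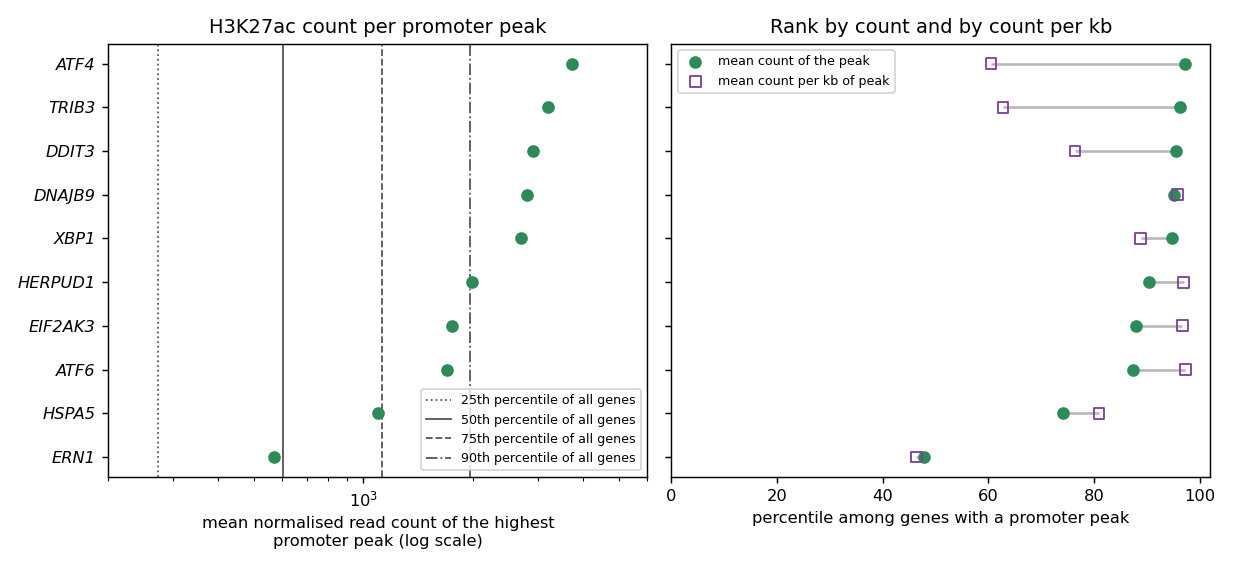
H3K27ac at the promoters of the 10 genes. The left panel gives the authors' mean normalised read count of the highest promoter peak (log axis) with the 25th, 50th, 75th and 90th percentiles of all genes as lines, and ERN1, at 569, is the only member left of the median line. The right panel gives percentiles by count (circles) and by count per kb of peak (squares), and the 2 marks lie farthest apart for ATF4, from 97.3 to 60.5.

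Among the sensors, the ERN1 promoter was the weakest of the 10. Its peak, chr17:64127715-64130998, held 569 mean counts over 3284 bp and stood at percentile 47.9. The EIF2AK3 promoter peak held 1751 over 3713 bp, percentile 88.0. The ATF6 promoter peak held 1696 over 3419 bp, percentile 87.3. Per kb of peak the order changed, with ATF6 at 496.0 counts per kb, EIF2AK3 at 471 and ERN1 at 173, beside a median of 184 over all genes. ERN1 lay below the median promoter on either scale, and the other sensors stood at percentiles 97.3 (ATF6) and 96.7 (EIF2AK3) per kb.

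Among the transcription factors, the ATF4 promoter lay in the widest peak of the set, 17348 bp at chr22:39516506-39533853 with a mean count of 3725. ATF4 is translated when PERK is active and drives amino acid and stress genes. The same peak covered the start of RPS19BP1 and exons of MIEF1, so its count does not belong to ATF4 alone. The DDIT3 peak, chr12:57517282-57527932, held 2909.5 mean counts over 10651 bp. DDIT3 encodes CHOP, a factor linked to cell death under prolonged stress, and its peak also covered the starts of MBD6 and of the overlapping gene ENSG00000285133. The XBP1 promoter peak, chr22:28795333-28802974, held 2706 mean counts over 7642 bp and was not shared with another protein-coding start. By mean count the percentiles were 97.3 for ATF4, 95.5 for DDIT3 and 94.8 for XBP1.

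Among the genes that these factors act on, DNAJB9, a co-chaperone also called ERdj4, had 2815 mean counts over 6308 bp in a peak shared with the start of THAP5. HERPUD1, part of the machinery that degrades proteins of the endoplasmic reticulum, had 1984 over 4106 bp. The peak of the chaperone gene HSPA5, chr9:125239467-125243169, held 1098 over 3703 bp and stood at percentile 74.2, just under the 75th percentile. TRIB3, a pseudokinase induced by ATF4 and CHOP, had a promoter peak of 14473 bp with 3207 mean counts. This peak also held 5491 bp of listed enhancer in non-senescent and 5693 bp in senescent cells, so its count is not of the promoter alone. It stood at percentile 96.3 by count and 62.8 per kb.

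The promoter sequences were searched for the short elements through which the response acts, in RefSeq's promoter sequences of GRCh38.p14, which run from 250 bases before to 50 after each start. They hold 15 sequences over the 10 members, and all 15 were identical to hg38. The endoplasmic reticulum stress element ERSE (CCAAT, 9 bases of any kind, then CCACG) binds the factor NF-Y together with ATF6 or XBP1. It stood without mismatch in 2 members, XBP1 and HSPA5, and in 25 of 27305 genes, 0.0916%. The related ERSE-II (ATTGG, 1 base, CCACG) stood in HERPUD1 and in 0.0696% of genes. Allowing 1 mismatch, ERSE was also found in DDIT3 and HERPUD1, beside 1.89% of all genes. ERSE-II with 1 mismatch was also found in HSPA5, beside 1.46% of all genes. The elements were chosen as known ones of this response, and the members are its genes. The shares are therefore a description, not independent support, and no test was made. The sequences of these members are given because they carry the elements, and ATF6 is shown as a promoter that holds none. Capitals mark the fixed letters of each ERSE, of the exact ERSE-II and of TGATGCAA, with position 1 at the start. The mismatched ERSE-II of HSPA5 is left in lower case.

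HSPA5, chr9:125241294-125241593, minus strand: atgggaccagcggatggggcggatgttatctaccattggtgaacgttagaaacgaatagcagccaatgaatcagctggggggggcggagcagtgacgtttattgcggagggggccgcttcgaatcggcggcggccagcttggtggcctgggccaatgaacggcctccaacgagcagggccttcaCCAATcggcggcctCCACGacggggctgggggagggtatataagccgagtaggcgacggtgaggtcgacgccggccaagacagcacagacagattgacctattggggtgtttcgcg
XBP1, chr22:28800520-28800819, minus strand: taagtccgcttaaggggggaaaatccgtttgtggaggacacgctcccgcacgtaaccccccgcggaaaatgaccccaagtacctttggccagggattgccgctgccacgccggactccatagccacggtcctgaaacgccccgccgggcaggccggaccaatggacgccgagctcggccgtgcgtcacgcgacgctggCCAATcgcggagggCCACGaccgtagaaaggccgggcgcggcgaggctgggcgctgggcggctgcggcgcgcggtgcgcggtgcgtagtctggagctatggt
HERPUD1, chr16:56931892-56932191, plus strand: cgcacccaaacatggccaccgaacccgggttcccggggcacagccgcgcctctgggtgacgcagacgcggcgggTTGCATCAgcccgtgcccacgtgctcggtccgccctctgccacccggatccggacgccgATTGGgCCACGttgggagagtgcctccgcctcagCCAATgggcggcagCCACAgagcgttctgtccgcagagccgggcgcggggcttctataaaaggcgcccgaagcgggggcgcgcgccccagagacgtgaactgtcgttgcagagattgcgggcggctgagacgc
DDIT3, chr12:57520465-57520764, minus strand: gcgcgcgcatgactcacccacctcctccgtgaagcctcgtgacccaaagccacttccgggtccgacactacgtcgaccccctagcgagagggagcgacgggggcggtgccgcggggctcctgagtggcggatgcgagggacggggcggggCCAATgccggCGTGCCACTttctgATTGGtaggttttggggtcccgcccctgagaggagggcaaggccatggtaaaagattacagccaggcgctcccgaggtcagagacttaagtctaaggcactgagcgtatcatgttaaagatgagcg
ATF6, chr1:161766070-161766369, plus strand: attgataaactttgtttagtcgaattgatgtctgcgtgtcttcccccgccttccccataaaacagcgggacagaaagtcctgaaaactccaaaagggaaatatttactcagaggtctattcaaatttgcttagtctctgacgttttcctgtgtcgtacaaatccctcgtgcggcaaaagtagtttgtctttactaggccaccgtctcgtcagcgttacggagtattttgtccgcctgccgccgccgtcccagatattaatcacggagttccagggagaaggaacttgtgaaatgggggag

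In HSPA5 the exact ERSE ran from base -66 to base -48, and in XBP1 from -52 to -34. In HERPUD1 the ERSE-II ran from -117 to -107, the mismatched ERSE from -83 to -65, and the reverse of TGATGCAA, the amino acid response letters read by ATF4, from -176 to -169. In DDIT3 the mismatched copies overlapped on opposite strands, from -100 to -82 and from -90 to -72, so that their capitals join in the printed run. The HSPA5 promoter held 5 CCAAT runs in all, counting both strands. The exact ERSE stood in 2 of the 38 H3K27ac peaks of the members, those of the XBP1 and HSPA5 promoters, and in 0.132% of all H3K27ac peaks.

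The other elements were absent from most members or frequent in all promoters. TGACGTGG, the letters read by XBP1 and ATF6, stood in 0 members and in 0.927% of genes. With 1 mismatch it stood in 4 members (ATF4, EIF2AK3, DNAJB9 and TRIB3), and then in 20.2% of genes. The cAMP element TGACGTCA stood in 0 members, beside 2.25% of genes. TGATGCAA stood in HERPUD1 alone, beside 1.08%. The parts of ERSE taken alone were frequent, with CCACG in 7 members and 42.1% of genes and CCAAT in 7 members and 39.7% of genes. The promoters had a median of 63.5% G and C beside 58.7% over all promoters, from 47.0% in ATF6 to 77.0% in TRIB3. For TRIB3 the RefSeq starts differ from the canonical GENCODE start, so its window is another stretch of the same H3K27ac peak.

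**Figure D2:**
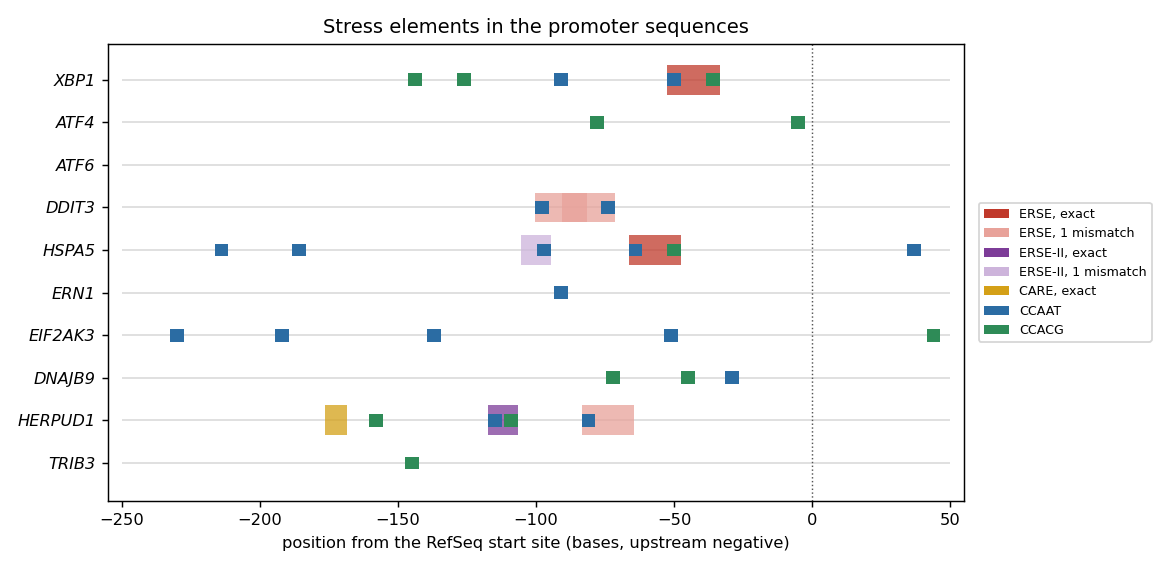
Elements in the promoter sequence of each gene, by distance from the RefSeq start in bases, with upstream negative. Wide bars mark ERSE, ERSE-II and TGATGCAA (CARE) and small bars mark CCAAT and CCACG on either strand. ERSE or ERSE-II stands between -117 and -34 in XBP1, DDIT3, HSPA5 and HERPUD1, and the rows of the other 6 genes hold short elements or, for ATF6, none.

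Outside the promoter peaks the members differed in how much H3K27ac surrounded them. Of 38 peaks, 15 were promoter peaks, 13 lay in the gene and 10 were nearest to it. ATF4 and DDIT3 had the promoter peak alone. HSPA5 had 1098 of its summed 1120.3 mean counts in the promoter peak, and HERPUD1 99.2% of its sum in promoter peaks. The small peaks inside HERPUD1, 5 in number, each held between 16.3 and 27.9 mean counts, of which 4 counted as promoter peaks because the gene has alternative starts there. ERN1 stood at the other end, with 8 peaks and 10.6% of its summed count in the promoter.

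At ERN1 most of the mark lay inside the gene. The peak at chr17:64091036-64101515 held 2319.6 mean counts over 10480 bp, the one at chr17:64079273-64086705 held 1379.9 over 7433 bp and the one at chr17:64072942-64075999 held 253 over 3058 bp. The largest of these was 28544 bp from the nearest ERN1 start and covered an exon of the gene. Upstream, within TEX2, a peak of 658 mean counts stood in neither enhancer list. Each of the intragenic peaks was listed as an enhancer in non-senescent and in senescent cells. The enhancers in the peak at chr17:64072942-64075999 were also assigned to ICAM2.

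XBP1 had a second strong peak upstream, at chr22:28816378-28826392, with 2969.9 mean counts over 10015 bp, which is more than its promoter peak held, while per kb it held 297 counts and the promoter peak 354. It began 15781 bp from the nearest XBP1 start, outside protein-coding genes and inside the long noncoding RNA gene ENSG00000226471, of which it also covered a start. At TRIB3 a peak of 1941 mean counts over 10859 bp adjoined the promoter peak and ran past the end of the gene. EIF2AK3 had a further promoter peak of 585 mean counts at an alternative start next to that of RPIA, from -66114 to -62467 bp relative to its canonical start (negative is upstream). Within ATF6, a gene of 211277 bp, peaks of 253, 113, 36.5 and 35.0 mean counts stood far from the promoter, and 1 of 13.2 lay upstream of it. Of the 38 peaks of the members, 6 were 10 kb or wider, as were 1.57% of all H3K27ac peaks. That share also covers peaks far from promoters, while the wide peaks of ATF4 and DDIT3 and 1 of TRIB3 were promoter peaks. Among the highest promoter peaks of all genes, those of the members ranged in width from percentile 58.2 (ERN1) to 98.8 (ATF4).

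**Figure D3:**
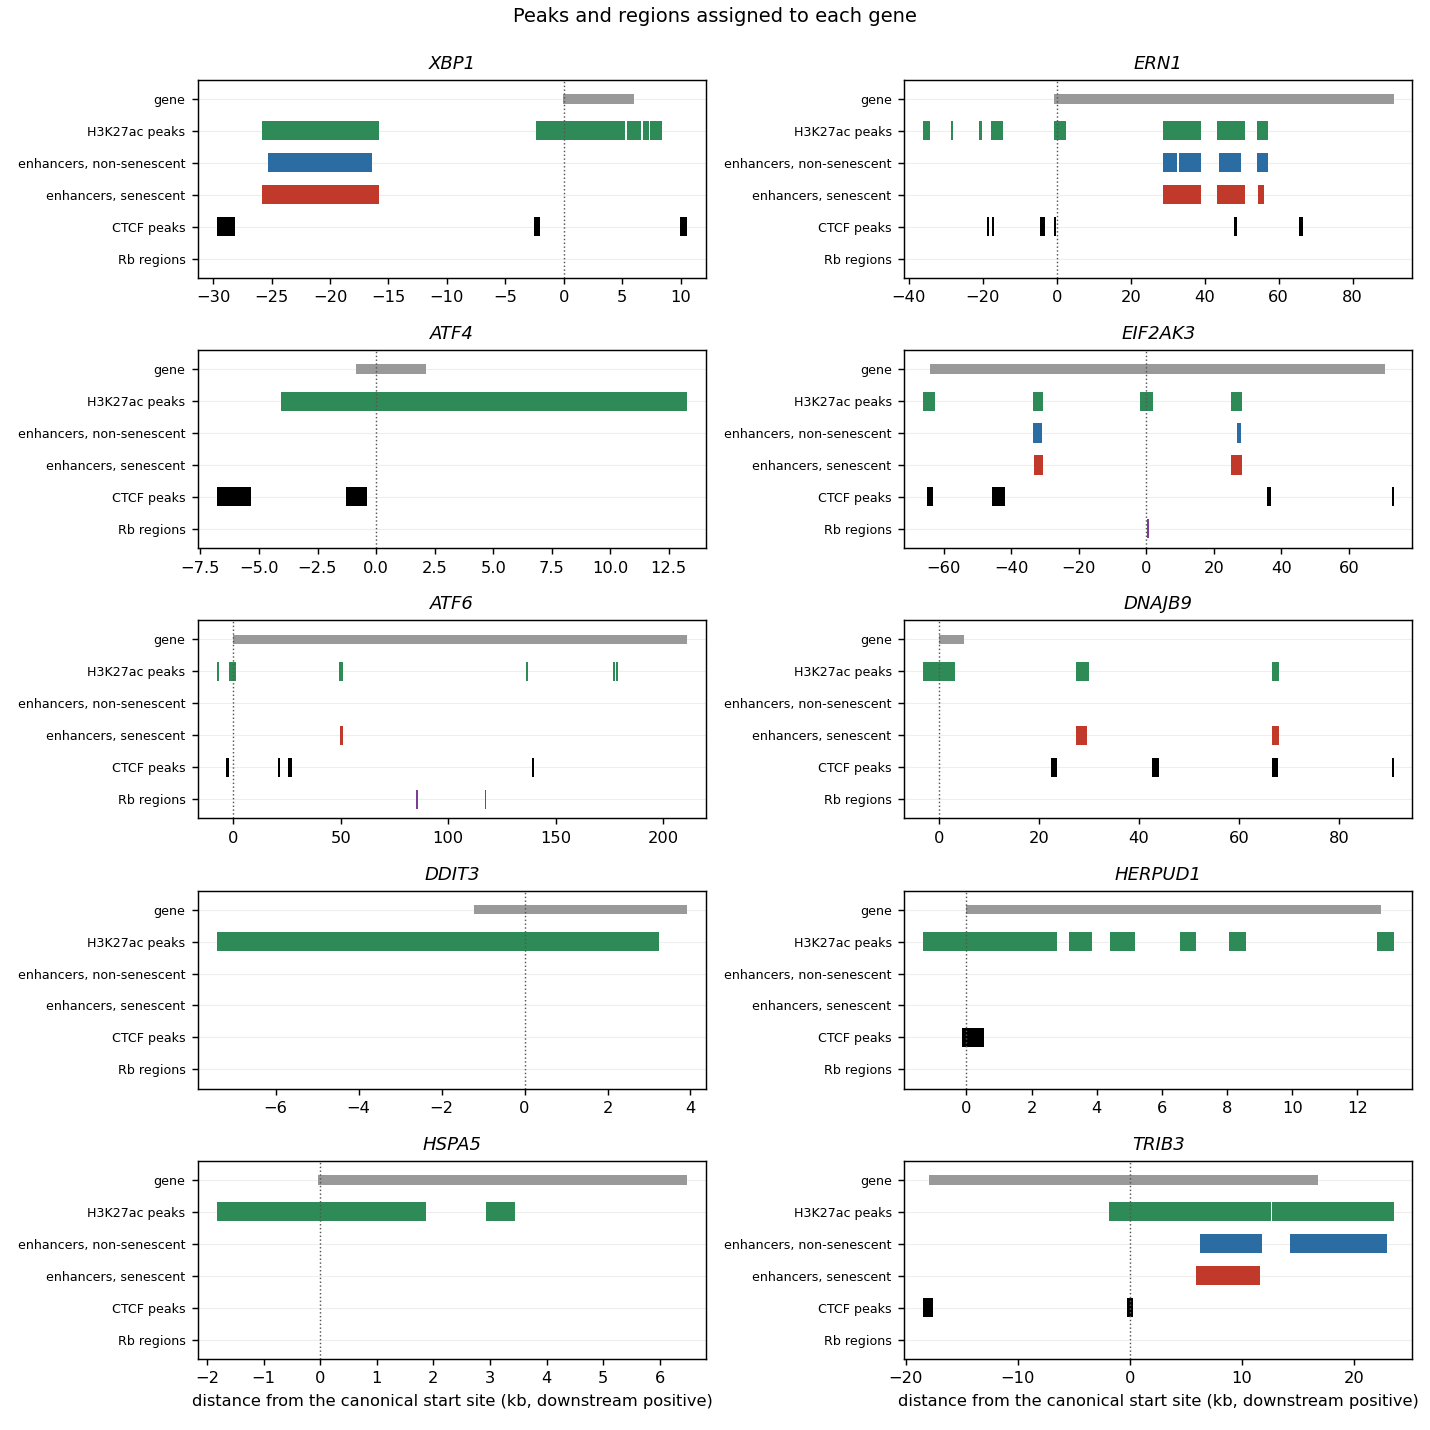
Positions of the H3K27ac peaks, the enhancers listed for each state, the CTCF peaks and the senescence-specific Rb regions assigned to each gene, by distance in kb from its canonical start, downstream positive and with a separate axis for each gene. Bars are regions drawn to scale, with a minimum width so that short ones can be seen. ATF6 and DNAJB9 hold senescent enhancers (red) with no non-senescent enhancer (blue), and ATF4, DDIT3, HSPA5 and HERPUD1 hold none.

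Enhancers, which the authors defined as H3K27ac signal overlapping H3K4me1 signal outside promoters, were listed at 4 members in non-senescent and at 6 members in senescent cells. The members had 9 of the 14886 non-senescent and 10 of the 13076 senescent enhancers. All 9 non-senescent enhancers overlapped a senescent one by at least 1 bp, so 0 of 9 stood in the non-senescent list only, where 29.4% of all non-senescent enhancers did. Of the 10 senescent enhancers, 3 had no overlap in the other list, beside 20.5% of all senescent enhancers. No test was made on so few regions. The members' non-senescent enhancers were wide, with a median of 5491 bp beside 2279.5 bp over all, and a wide region more readily overlaps another by 1 bp. In the senescent list the medians were 2986 and 2486 bp. XBP1, ERN1, EIF2AK3 and TRIB3 had enhancers in both lists, ATF6 and DNAJB9 in the senescent list only, and 4 members in neither. Over all genes, 26.2% had enhancers in both lists, 3.71% in the senescent list only, 5.15% in the non-senescent list only and 64.9% in neither.

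ATF6 had its senescent enhancer at chr1:161815838-161817326, 1489 bp long, in an intron 49274 bp from the nearest start. The H3K27ac peak around it held 253 mean counts. DNAJB9 had senescent enhancers at chr7:108597235-108599598, 2364 bp long, and at chr7:108636454-108637953, 1500 bp long, in peaks of 246 and 83.2 mean counts. They lay 27361 and 66580 bp downstream of the DNAJB9 start, the former over a start of the long noncoding RNA gene ENSG00000225647 and the latter inside it. When genes of every type could be nearest, these 2 enhancers and that of XBP1 passed to noncoding genes. With a limit of 50 kb the farther DNAJB9 enhancer was not assigned.

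Where both states had an enhancer, the listed length differed by gene. At EIF2AK3 it was 3672 bp in non-senescent and 5972 bp in senescent cells, a ratio of 1.63. Of the difference of 2300 bp, 2119 bp came from the enhancer downstream of the canonical start, 1151 bp long at chr2:88599493-88600643 in the non-senescent list and 3270 bp at chr2:88599236-88602505 in the senescent list. The other EIF2AK3 enhancer, upstream of that start and also in an intron, was 2521 bp and 2702 bp long. At XBP1 the upstream enhancer was 8922 bp and 10015 bp long, and at ERN1 the summed length was 18605 bp and 19374 bp. At ERN1 the non-senescent enhancers chr17:64091036-64097233 and chr17:64097761-64101375 were covered to 97.1% and 100% by the single senescent enhancer chr17:64091217-64101515, which is why the gene had 4 enhancers in one list and 3 in the other.

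TRIB3 had the longer length in non-senescent cells. Inside its H3K27ac peaks 14210 bp were listed in the non-senescent and 10368 bp in the senescent list, a ratio of 0.730. By the assignment rule alone the senescent length was 5693 bp, a ratio of 0.401, because 4675 bp were assigned to another gene. The enhancer near the promoter was 5491 bp and 5693 bp long. The one at the end of the gene was 8719 bp long in the non-senescent list, and 53.6% of it was covered by a senescent enhancer that begins past the end of TRIB3 and is assigned to the neighbour RBCK1. Over all shared enhancers the ratio of lengths had a median of 1.04 with quartiles of 0.863 and 1.27, so that of EIF2AK3 lay above the upper quartile and that of TRIB3 below the lower one. These ratios are of gene sums at the members and of single enhancers over the series.

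**Figure D4:**
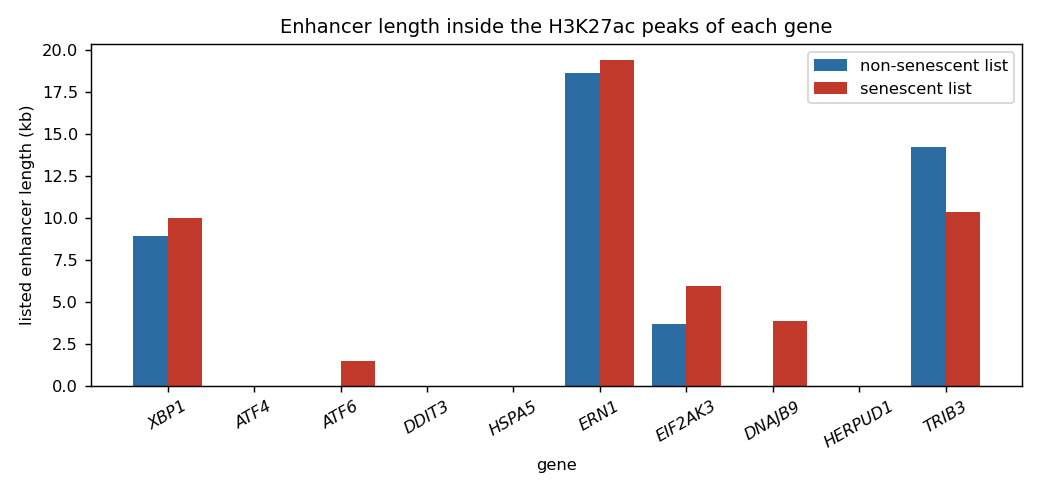
Length in kb of listed enhancers inside the H3K27ac peaks of each gene, in the non-senescent list (blue) and the senescent list (red). ATF6 and DNAJB9 have red bars alone, EIF2AK3 has the taller red bar, TRIB3 the taller blue bar, and there are no error bars because each state has 1 list.

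The peaks of the members outside promoters that stood in neither list were mostly weak. There were 13 of them, with a median of 36.5 mean counts and a range from 13.2 to 658, while the 10 listed ones had a median of 409 and a range from 83.2 to 2969.9. Of the 38 H3K27ac peaks, 12 held under 50 mean counts, and such low counts were also common in the series. Among all H3K27ac peaks, a count of 40.7 stood at percentile 27.4 and one of 60.6 at percentile 35.4.

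The enhancer sequences were searched on both strands for TGANTCA, which takes in TGACTCA and TGAGTCA, the letters bound by AP-1 (FOS and JUN) factors. TGANTCA occurred 25 times in the 10 senescent enhancers of the members, 0.539 per kb, beside 0.350 per kb over all senescent enhancers. EIF2AK3 held 9 of these, and without it the members stood at 0.396 per kb. In the non-senescent list the values were 0.507 per kb for the members, 0.383 without EIF2AK3 and 0.350 over all. The downstream EIF2AK3 enhancer held 4 matches in its 1151 non-senescent bases and 6 in its 3270 senescent bases. At least 4 were present in 4.42% of all non-senescent enhancers and at least 6 in 1.31% of all senescent ones. This enhancer was singled out after its values were seen. The 6 sites are shown because they lie in the EIF2AK3 enhancer whose listed length differed more, with the single site of the ATF6 senescent enhancer after them, all on the plus strand with the matched letters in capitals.

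EIF2AK3, chr2:88600055-88600081: caaggcattaTGATTCAataatgaatc
EIF2AK3, chr2:88600066-88600092: gattcaataaTGAATCAtcatgtcata
EIF2AK3, chr2:88600146-88600172: tggttgcttaTGAGTCAtacacatggc
EIF2AK3, chr2:88600325-88600351: agcataggaaTGAGTCAcccgatagtc
EIF2AK3, chr2:88600883-88600909: tctccccaacTGACTCAcacacttttt
EIF2AK3, chr2:88602223-88602249: tcttgattagTGACTCAggcattaaac
ATF6, chr1:161815995-161816021: actcttacatTGATTCAaccttcaaag

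The first 4 of these lay inside the enhancer of both lists (the printed stretches of the first 2 overlap, their matched letters do not), and the last 2 of EIF2AK3 in the part listed in senescent cells alone. The DNAJB9 senescent enhancers held 0 matches. The first 2 EIF2AK3 matches and the ATF6 match have A or T in the middle, so they are not TGACTCA or TGAGTCA. Matches were not counted apart by that letter, so the counts and values per kb are of TGANTCA and not of the AP-1 letters alone. A match is a run of letters and was not measured as a bound site.

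Rb, which holds cell-cycle genes silent once Large T is gone, had 2435 regions called with senescent libraries against non-senescent ones. According to the methods the cutoff for Rb was on p, without the correction for multiple tests in the q used for CTCF. The call is thus a lenient one. The members held 3 of the Rb regions. At EIF2AK3 a region of 377 bp, chr2:88626921-88627297, lay 167 to 543 bp downstream of the canonical start and wholly inside the promoter H3K27ac peak. EIF2AK3 was the only member with a promoter Rb region, and 1.57% of protein-coding genes had one. Its sequence was 76.1% G and C and held 1 match, on either strand, to the E2F letters TTNNCGC with C or G at each N, at chr2:88627199-88627205. Among Rb regions of 300 to 450 bp, 8.27% held such a match. Those regions were chosen by width alone, not by G and C content or by lying at a promoter. The other regions lay within ATF6, 229 bp at chr1:161851566-161851794 and 43 bp at chr1:161883229-161883271, with no H3K27ac peak and 0 matches in either.

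CTCF binds at the ends of chromatin loops, and loops form most often between sites whose motifs point toward each other. The members had 26 CTCF peaks, with mean counts from 14.9 to 517 and a median of 59.2, beside 58.6 over all CTCF peaks. DDIT3 and HSPA5 had none within the rule. A promoter CTCF peak was present at 6 members (ATF4, ATF6, ERN1, EIF2AK3, HERPUD1 and TRIB3) and at 47.6% of genes. Those at or just before the canonical starts lay below the median of all CTCF peaks. They held 22.3 mean counts at ERN1 (percentile 27.6), 26.5 at HERPUD1 (32.0), 47.5 at TRIB3 (45.4) and 52.3 at ATF4 (47.5). TRIB3 had another promoter peak, of 66.0 mean counts, at an alternative start upstream. The EIF2AK3 promoter peak, at 239, was at the alternative start next to RPIA, and that of ATF6, at 133, lay 1924 bp from the nearest start.

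Outside the promoters, EIF2AK3 held 517 mean counts at chr2:88669261-88673040 and 232 at chr2:88590398-88591775, on either side of its start and of its enhancers. XBP1 held 378 at chr22:28828699-28830257, just beyond the upstream enhancer. ATF6 held 237 at chr1:161791860-161793539, between its start and its senescent enhancer. At DNAJB9 a peak of 116 stood between the gene and its nearer senescent enhancer and a peak of 184 between the enhancers. A peak of 47.3, chr7:108636588-108637640, lay wholly inside the farther one.

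A core of the CTCF motif, 12 bases with no more than 1 mismatch, stood in 13 of these 26 peaks and in 47.2% of all CTCF peaks. The methods state that the CTCF peaks had been filtered for the full binding motif, so a peak without these 12 bases need not lack a CTCF motif. The full motif was not searched for here. Peaks with the core had a median of 116 mean counts and the others 32.4. Of the 10 peaks with at least 100 mean counts, 7 held a core, beside 67.5% of such peaks in the series. These cores are shown in capitals on the strand of the motif, since the direction of the motif bears on the loops it can join.

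XBP1, chr22:28829553-28829576, minus strand: aattggCCACTAGATGGCcctgca
EIF2AK3, chr2:88671994-88672017, minus strand: ttttgcCCACTAGAGGGCaagctc
EIF2AK3, chr2:88591202-88591225, plus strand: tttatgCCACAAGAGGGCccacaa
ATF6, chr1:161763678-161763701, plus strand: ccttggCCACAAGGGGGCctattc
ATF6, chr1:161792837-161792860, plus strand: ttttatCCACCAGATGGCctcata
ERN1, chr17:64133801-64133824, minus strand: tttattACACTAGAGGGCgatatt
DNAJB9, chr7:108592898-108592921, plus strand: ggttccCCACTAGATGGGggccgt

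The nearest CTCF peaks of at least 100 mean counts on either side of the start lay a median of 87.7 kb apart for the members and 133 kb apart over all genes, from 14.9 kb at ATF4 to 217 kb at HERPUD1. Both of these peaks held a core at 6 members. At ERN1 and EIF2AK3 both cores pointed toward the start, at DDIT3 and DNAJB9 both pointed away, and at ATF6 and HERPUD1 they pointed the same way along the chromosome. Over the 9021 genes with a core in both peaks, 29.95% had both pointing toward the start. The enhancers of EIF2AK3 lay between its pair, as did those of ERN1.

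**Figure D5:**
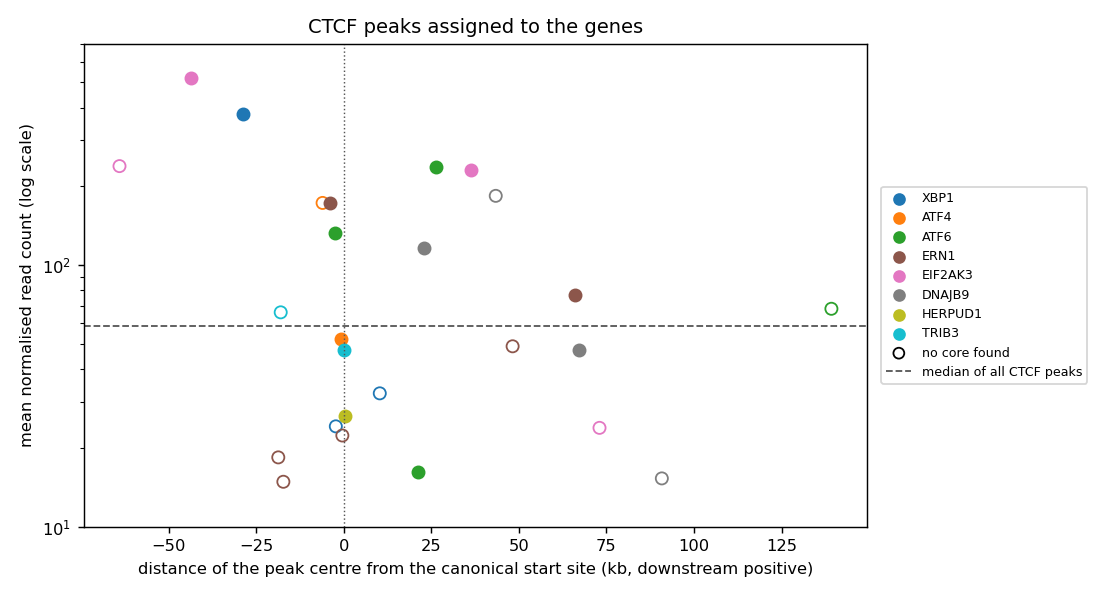
Mean normalised read count (log axis) of the CTCF peaks of the members by distance in kb from the canonical start, coloured by gene, filled where a core motif was found and open where not. The dashed line is the median of all CTCF peaks at 58.6, and the 2 highest points are those of EIF2AK3 at 517 and XBP1 at 378.

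A further 57 genes of the pathway, chosen with earlier results of these data known, were read in the same way. Of these, 55 (96.5%) had an H3K27ac promoter peak, beside 66.4% of all genes. Their median was 966 mean counts and their median percentile 69.7. Above the 75th percentile of all promoters stood 22 of the 57, 38.6%, beside 16.6% of all genes. Most of the list was marked, and its median lay below the 2345 of the 10 members. The highest were WFS1 at 5360.1, a membrane protein of the endoplasmic reticulum that beta cells need, SEC24D at 3499.6, a coat protein of vesicles that leave it, and PPP1R15B at 2840.3, which restores translation. The lowest were DERL3 at 138, a degradation factor, PDIA6 at 184, a disulfide isomerase, and EDEM2 at 243, a mannosidase. ERN2, the epithelial relative of ERN1, and the retrieval receptor KDELR3 had none.

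By branch, the median promoter count was 1014 in the IRE1 and XBP1 branch (15 of 17 genes with a peak), 946 in the PERK branch (15 of 15), 969 in the ATF6 branch with folding enzymes (16 of 16) and 775 in degradation (9 of 9). Enhancers were listed in both states at 19 of the 57 genes (33.3%, beside 26.2% of all genes) and in neither at 32 (56.1% beside 64.9%). They were listed in non-senescent cells only at ATF3, MBTPS2, CANX and SEL1L (7.02%, beside 5.15% of all genes). In senescent cells only they were listed at SEC31A and KDELR3 (3.51% beside 3.71%). The listed length was greater in senescent cells at 12 genes and in non-senescent cells at 13, beside 3494 and 3396 of all 19663 genes. A CTCF promoter peak stood at 33 and a promoter Rb region at 0 of the 57, beside 47.6% and 1.57% of all genes.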

How the data were processed

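The members and gene lists were chosen with earlier results of these data known. According to the methods, reads had been trimmed (Trim Galore) and aligned to hg38 (Bowtie2). The authors used HOMER for the histone marks and MACS2 for CTCF, each against input, and MACS2 with the non-senescent libraries as control for Rb, and kept CTCF peaks in which FIMO found the CTCF motif. Versions, and how replicates were combined, are not given in the sources used here. The deposited signal of a peak is the authors' DESeq2 mean, over the 6 libraries of both states, of reads divided by size factors. It grows with peak width and depth, and size factors hide a rise or fall common to all peaks. The tables' other columns (log2 fold change, its standard error, statistic, p and adjusted p) hold the authors' comparison and were not used. The deposited region lists hold other values, namely positions alone. The test planned for counts per library was therefore not run. H3K4me1 was used only through the enhancer lists.

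Groups came from the labels. Peaks and lists were read with pandas 2.3.3, and sequences with pysam 0.24.0. Tables were read as counting starts from 0. A promoter was 2 kb on either side of a protein-coding start in GENCODE 44, the nearest limit was 100 kb, and 1 shared bp counted as overlap. The 24 chromosome names match hg38. Overlap, assignment and motif searches were tested on simulated regions and sequences. All members were named, and pathway genes were named by the 3 highest and 3 lowest promoter counts and by enhancers in 1 list. The TGANTCA and E2F searches and the distances between strong CTCF peaks were added after the data were seen. Alternatives were other windows, starts, nearest limits, count minimums, overlaps and mismatches. A further beta-cell marker of the list is not reported here.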

Additional observations from a re-analysis of the deposited data

How the results depend on the processing

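Of 59 values recomputed with other settings for 11 results, 54 stayed within 1.5 times the reported count or, for the level, within the spread of the members' percentiles, and 5 did not. With a minimum of 50 mean counts, 14 of the 26 CTCF peaks were left. With 1 mismatch, ERSE was found in 4 members, ERSE-II in 2 and TGACGTGG in 4. With an exact core, 4 CTCF peaks of the members held the motif. Under every window, start set and count minimum tried, all 10 members kept a promoter H3K27ac peak. The members' median percentile of promoter level ranged from 84.9 to 95.1. Member enhancers ranged from 8 to 9 in the non-senescent and from 7 to 10 in the senescent list. Where 50% of a senescent enhancer had to be overlapped, 6 of the 10 were shared, and 7 by 1 bp. With 50% of both enhancers overlapped, 7 of the 9 non-senescent ones were shared, so 2 rather than 0 stood in that list only. The 3 alternatives that need counts per library (TMM against DESeq2 size factors, each library left out, the replicate block) were not run. No paired analysis was possible because the tables hold no values per library. Small peaks rest on few reads, and depth per library is unknown.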
